A study of Mus musculus with 12 samples.

Results

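Interferon response genes were compared between the white adipose tissue of mice that lack Ahnak and that of wild-type (WT) mice. The 9 genes followed are Ifit1, Ifit2, Ifit3, Oas1a, Oas3, Isg15, Stat2, Irf7 and Irf8. A gene was read from the row of the array table annotated with its symbol alone, and where there were several such rows, from the one with the highest mean over the 12 arrays. By that rule 8 of the 9 genes had a row, out of 19937 genes in all. The 1 row that lists Isg15, a small ubiquitin-like protein that is attached to other proteins, also lists Gm9706, so its level was not used here. A second row for Oas1a also lists Oas1g and was likewise not used. Ifit3 and Oas1a have near-identical paralogs, Ifit3b and Oas1g, so their own rows may also carry signal from those genes.

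Interferons are secreted when a cell senses foreign or misplaced nucleic acid. Type I interferons bind the receptor Ifnar1 and Ifnar2 and act through the kinases Jak1 and Tyk2 on Stat2, which joins Irf9 in a complex that binds the interferon stimulated response element (ISRE) in the promoters of their targets. Interferon gamma uses a separate receptor, Ifngr1 and Ifngr2, and acts through the gamma activated sequence (GAS). The Ifit proteins bind viral RNA, and the Oas enzymes make short oligoadenylates that activate RNase L. Irf7 amplifies the type I response. Irf8 is a transcription factor of macrophages, dendritic cells and B cells, and in adipose tissue immune cells of these kinds lie among the adipocytes.

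The 12 arrays, of 1 colour, fall into 4 groups of 3: WT on chow, Ahnak knockout (KO) on chow, WT on high fat diet (HFD) and KO on HFD. All mice were males aged 18 weeks, the feeding period was 12 weeks, and the HFD held 60% fat, 20% carbohydrate and 20% protein. The sources used here do not give the strain, the fat depot or how the knockout was made. Replicates are numbered without a statement that each is a separate animal, so the spread behind a p-value may be technical.

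Ahnak, the targeted gene, had log2 intensities of 9.94, 10.06 and 10.08 in WT and 9.31, 9.27 and 9.42 in KO on chow, and of 10.27, 9.68 and 10.04 in WT and 9.58, 9.40 and 9.45 in KO on HFD. The KO arrays thus still read 9.27 to 9.58 on this row, where array medians were 5.78 to 5.92, so the row does not show an absent transcript. Every KO array lay below every WT array of its diet. The difference was -0.69 ± 0.13 (SE) on chow (adjusted p = 0.38 by limma) and -0.52 ± 0.13 on HFD (adjusted p = 0.021). For the HFD difference the adjusted p was 0.074 when WT HFD replicate 3 was left out, 0.062 and 0.067 when KO HFD replicates 2 and 3 were, and 0.099 in a fit of those 6 arrays alone. Arrays of 1 group correlated at r = 0.985 to 0.996 over all genes. The summed adipocyte markers (linear intensity, 6 of 6 markers measured) were 31352 to 41413 in WT and 44650 to 46683 in KO on HFD, which do not overlap. On chow they were 42466 to 44702 in WT and 40256 to 44727 in KO.

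To show what the members share at their promoters, the 250 bases before each RefSeq start site were searched on both strands for an ISRE core, which is GAAA, any 2 bases and GAAA (on the other strand TTTC, any 2 bases and TTTC), and for a GAS, TTCNNNGAA, which reads alike on both strands. The windows below are from RefSeq, build GRCm38.p6. Capitals mark the ISRE core in Ifit1 (chr19:34640639-34640888, plus strand), in Oas1a (chr5:120907526-120907775, minus strand) and in Stat2 (chr10:128270248-128270497, plus strand), and mark the GAS in Irf8 (chr8:120736108-120736357, plus strand). The first 2 are interferon induced effector genes, Stat2 is the signal transducer, and Irf8 is the member with the largest genotype difference below.
Ifit1: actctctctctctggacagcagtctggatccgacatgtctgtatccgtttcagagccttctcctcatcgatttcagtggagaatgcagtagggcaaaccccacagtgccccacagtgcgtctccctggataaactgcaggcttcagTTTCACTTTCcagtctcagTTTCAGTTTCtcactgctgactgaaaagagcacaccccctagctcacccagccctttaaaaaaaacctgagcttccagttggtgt
Oas1a: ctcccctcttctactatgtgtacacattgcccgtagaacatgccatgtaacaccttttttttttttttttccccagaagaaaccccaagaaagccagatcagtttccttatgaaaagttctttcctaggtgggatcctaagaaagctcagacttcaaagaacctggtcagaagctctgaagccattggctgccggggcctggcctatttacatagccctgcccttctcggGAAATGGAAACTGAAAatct
Stat2: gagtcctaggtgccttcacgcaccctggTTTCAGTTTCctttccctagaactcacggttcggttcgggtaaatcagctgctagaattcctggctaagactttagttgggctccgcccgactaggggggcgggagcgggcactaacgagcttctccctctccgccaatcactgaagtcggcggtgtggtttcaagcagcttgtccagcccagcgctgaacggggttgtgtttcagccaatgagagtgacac
Irf8: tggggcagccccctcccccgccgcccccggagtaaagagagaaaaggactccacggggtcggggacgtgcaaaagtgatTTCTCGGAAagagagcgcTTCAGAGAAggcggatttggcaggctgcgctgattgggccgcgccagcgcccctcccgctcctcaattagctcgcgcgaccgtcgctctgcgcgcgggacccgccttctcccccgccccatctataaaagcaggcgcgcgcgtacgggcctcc

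The ISRE core was present in the windows of 6 of the 9 member genes. Over all 27025 genes with a window, 3.46% held it. Ifit1 held 2 matches, which began 104 and 85 bases before the start site, and Ifit3 held 2, at 156 and 122. In Oas1a 2 overlapping matches began 20 and 14 bases before the start site, and RefSeq's record of the gene reaches into those last bases. The records of Oas3, Irf7 and Ifit2 also reach into their windows. The window of Ifit3 lies wholly within its record, as does a further window of Ifit2 and of Irf8. Oas3 held 1 match at 75 bases, Stat2 held 1 at 222, and Isg15 held 3 at 78, 72 and 66. No match was in the windows searched for Ifit2, Irf7 and Irf8. The GAS was present in 3 of the 9 genes and in 8.13% of all genes: in Ifit2 at 241 bases, in Oas1a at 98, and in Irf8 at 171 and 153. These matches are letters in a window and were not tested as sites.

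The comparison of KO with WT asks what the loss of Ahnak changes on each diet. On chow no member passed the test, and the differences lay between -0.11 and 0.24 on the log2 scale. On HFD Irf8 was lower in KO by 2.30-fold, while the other 7 measured members did not pass. With HFD, Irf8, Oas1a, Ifit2 and Oas3 rose and Irf7 fell in WT, and Stat2 rose in KO. The plot of the members by array shows each value behind these statements.

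**Figure D1:**
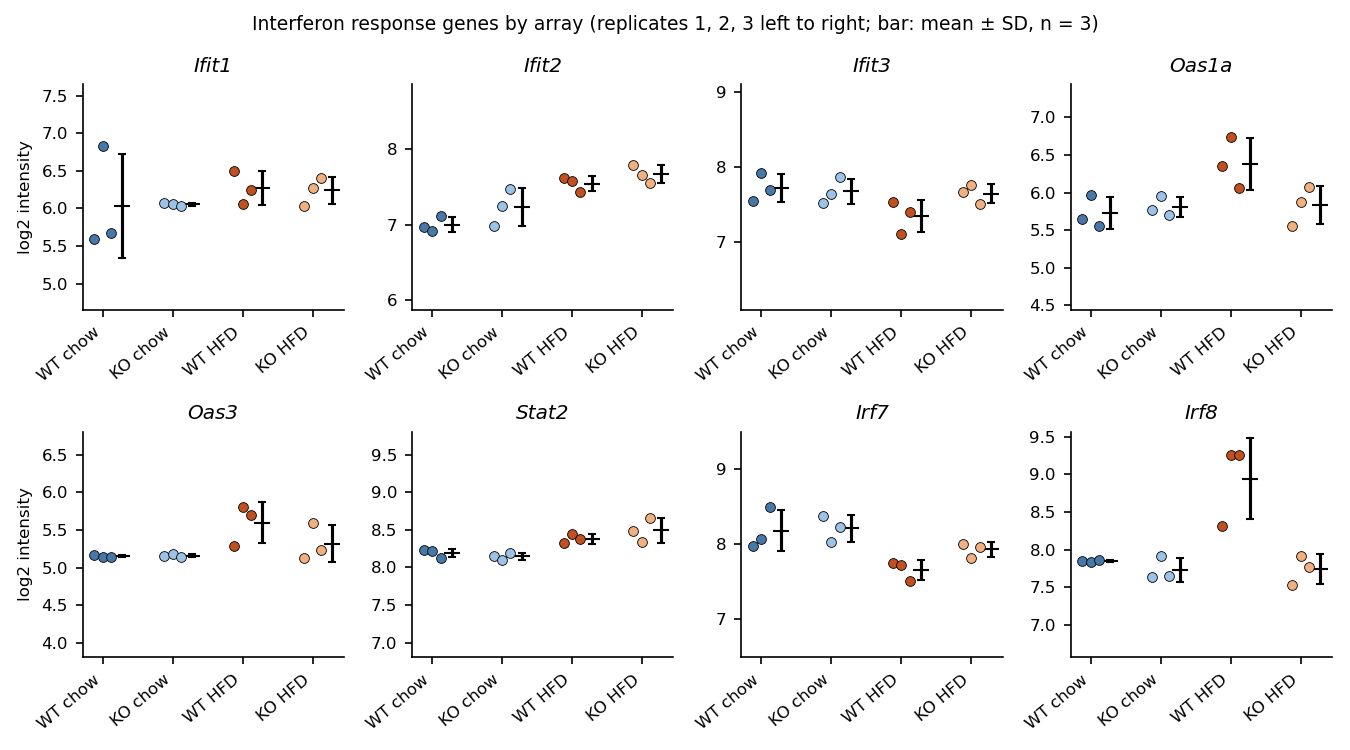
Log2 intensity of the 8 measured members on each of the 12 arrays, 1 panel a gene, with replicates 1, 2 and 3 from left to right in WT chow, KO chow, WT HFD and KO HFD. Bars give the mean ± SD (n = 3) of each group. Irf8 lies between 8.32 and 9.26 on the WT HFD arrays and between 7.53 and 7.92 on all others.

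Counted over the members, limma called 0 of 8 for KO against WT on chow, where it called 0% of all genes. At an unadjusted p under 0.05 the counts were 0 of 8 members and 5.60% of all genes, and no member's KO and WT arrays were apart, against 11.5% of all genes. On HFD 1 of 8 members was called, Irf8, beside 13.5% of all genes, 6.85% lower. The arrays of the genotypes did not overlap for 2 of 8 members, Irf8 and Irf7, and for 30.9% of all genes. The members' shares on HFD lie near those of all genes, so these counts are no result about the members as a group. Their median change was 0.01 on chow and 0.04 on HFD, and that of all genes 0.01 and 0.02.

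For HFD against chow, 5 of 8 members were called in WT, beside 24.1% of all genes. Of these 4 rose, where 11.8% of all genes did, and 1 fell, where 12.3% did. The WT arrays of the 2 diets did not overlap for 7 of 8 members and for 38.8% of all genes. In KO 1 of 8 members was called, a rise, beside 6.34% of all genes called and 2.80% that rose. KO arrays of the 2 diets were apart for 3 of 8 members, Ifit2, Stat2 and Irf7, and for 28.8% of all genes. The members' median diet change was 0.34 in WT and 0.09 in KO, and that of all genes -0.03 and -0.01. KO against WT on HFD and HFD against chow in WT share the WT HFD arrays, so their values for a gene are not independent.

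**Figure D2:**
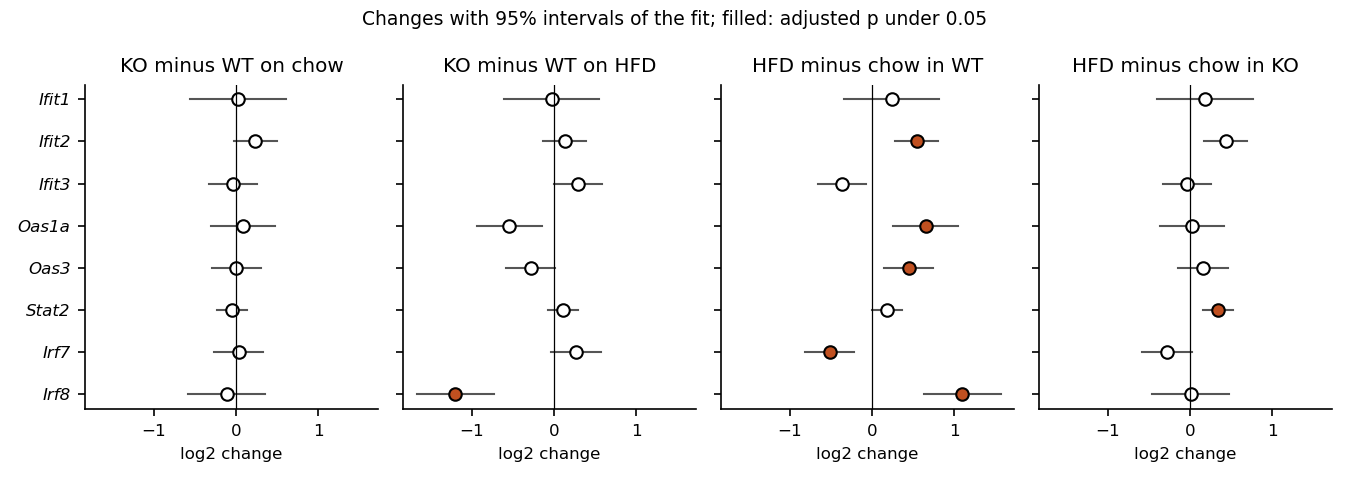
Log2 change of the 8 measured members in each of the 4 pairwise comparisons, with the 95% interval of the fit (n = 3 arrays a group). Filled points passed at an adjusted p under 0.05. Irf8 passed in KO minus WT on HFD (-1.20) and in HFD minus chow in WT (1.10), and the chow panel has no filled point.

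Irf8, the immune cell transcription factor, had log2 intensities of 7.84, 7.83 and 7.86 in WT and 7.64, 7.92 and 7.65 in KO on chow. On HFD it had 8.32, 9.26 and 9.25 in WT and 7.53, 7.92 and 7.77 in KO. The WT HFD arrays stood above all 9 others, and replicate 1 was the lowest of them. Among the other 3 group means the order was WT chow (7.85 ± 0.02, SD, n = 3), KO HFD (7.74 ± 0.19) and KO chow (7.73 ± 0.16), whose arrays overlap, against 8.94 ± 0.54 in WT HFD. KO fell against WT on HFD by 1.20 ± 0.21 (95% interval -1.67 to -0.73, adjusted p = 0.0075). WT rose by 1.10 ± 0.21 with HFD (adjusted p = 0.0046), while KO had 0.01 ± 0.21 (interval -0.46 to 0.48, adjusted p = 0.99), and the chow difference between genotypes was -0.11 ± 0.21 (-0.58 to 0.35, adjusted p = 0.995).

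Leaving out any 1 of the 6 HFD arrays kept the Irf8 call on HFD, with changes of -1.52 to -1.04 and adjusted p of 2.1e-05 to 0.038. A fit of the 6 HFD arrays alone gave the same difference an adjusted p of 0.066.

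Irf7, the amplifier of type I interferon production, had 7.97, 8.06 and 8.48 in WT and 8.37, 8.02 and 8.22 in KO on chow. On HFD it had 7.75, 7.72 and 7.50 in WT and 7.996, 7.82 and 7.96 in KO. All WT HFD arrays lay below all other arrays. WT fell by 0.51 ± 0.14 with HFD (1.43-fold lower, adjusted p = 0.018), opposite in sign to the other 4 calls in that comparison. KO with HFD had -0.28 ± 0.14 (adjusted p = 0.25), and KO against WT had 0.27 ± 0.14 on HFD (-0.03 to 0.57, adjusted p = 0.24) and 0.03 ± 0.14 on chow (adjusted p = 0.995). The WT diet call was lost without WT chow replicate 3 (-0.36, adjusted p = 0.060) or WT HFD replicate 3 (-0.44, 0.077), and in a fit of the 6 compared arrays alone (0.058).

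Stat2, the transducer that joins Irf9 under type I interferon, had 8.24, 8.21 and 8.13 in WT and 8.16, 8.10 and 8.19 in KO on chow. Its HFD values were 8.32, 8.45 and 8.37 in WT and 8.48, 8.33 and 8.66 in KO. Every HFD array was above every chow array, and the genotypes overlapped on both diets. With HFD it rose in KO by 0.34 ± 0.08 (1.27-fold, adjusted p = 0.037) and had 0.19 ± 0.08 in WT (adjusted p = 0.14). The KO call was lost without any 1 of the 3 KO chow replicates or of KO HFD replicates 1 and 3 (adjusted p of 0.073 to 0.14) and in a fit of the 6 compared arrays alone (0.087). KO minus WT was -0.04 ± 0.08 on chow (adjusted p = 0.995) and 0.11 ± 0.08 on HFD (0.46).

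The 3 Ifit genes, which lie near each other on chromosome 19, did not move together. Ifit1 had 5.59, 6.83 and 5.67 in WT and 6.07, 6.06 and 6.03 in KO on chow, and 6.50, 6.06 and 6.24 in WT and 6.04, 6.28 and 6.40 in KO on HFD. WT chow replicate 2 held the highest value of all 12 arrays and WT chow replicate 1 the lowest, and the 4 groups overlap. Its genotype differences were 0.02 ± 0.27 on chow (-0.56 to 0.60, adjusted p = 0.998) and -0.03 ± 0.27 on HFD (-0.61 to 0.55, adjusted p = 0.96). Without WT chow replicate 2 the WT diet difference changed from 0.24 ± 0.27 (adjusted p = 0.58) to 0.64 ± 0.13 (adjusted p = 0.013).

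Ifit2 had 6.97, 6.92 and 7.11 in WT and 6.98, 7.25 and 7.48 in KO on chow, and 7.62, 7.58 and 7.43 in WT and 7.80, 7.66 and 7.56 in KO on HFD. HFD arrays were above chow arrays within each genotype. It rose in WT by 0.54 ± 0.12 (1.46-fold, adjusted p = 0.0077), a call that held without any 1 of the 6 arrays. KO with HFD had 0.44 ± 0.12 (adjusted p = 0.053), which passed without KO chow replicate 3 (0.56, adjusted p = 0.047). Its genotype differences were 0.24 ± 0.12 on chow (-0.03 to 0.50, adjusted p = 0.90) and 0.13 ± 0.12 on HFD (-0.13 to 0.39, adjusted p = 0.57).

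Ifit3 had 7.54, 7.91 and 7.69 in WT and 7.52, 7.64 and 7.86 in KO on chow, and 7.53, 7.11 and 7.40 in WT and 7.67, 7.76 and 7.50 in KO on HFD. WT HFD was the lowest group, with replicate 2 lowest of all arrays, and it overlapped KO HFD. The WT diet difference was -0.37 ± 0.13 (adjusted p = 0.069), opposite in sign to that of Ifit2, and it passed without WT HFD replicate 1 (-0.46, adjusted p = 0.034). KO minus WT was 0.29 ± 0.13 on HFD (0.00 to 0.59, adjusted p = 0.18) and -0.04 ± 0.13 on chow (adjusted p = 0.995).

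Oas1a and Oas3, both on chromosome 5, encode oligoadenylate synthetases. Oas1a had 5.65, 5.97 and 5.56 in WT and 5.76, 5.96 and 5.71 in KO on chow, and 6.35, 6.74 and 6.05 in WT and 5.56, 5.87 and 6.07 in KO on HFD. The WT HFD arrays were above all chow arrays, and 1 KO HFD array, replicate 3, reached the lowest of them. It rose with HFD in WT by 0.65 ± 0.18 (1.57-fold, adjusted p = 0.022). KO minus WT on HFD was -0.54 ± 0.18 (-0.94 to -0.15, adjusted p = 0.069), and on chow 0.09 ± 0.18 (adjusted p = 0.995). The WT diet call was lost without WT chow replicate 1 (0.62, adjusted p = 0.068), WT chow replicate 3 (0.57, 0.081) or WT HFD replicate 2 (0.48, 0.078), and in a fit of the 6 compared arrays alone (0.059).

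Oas3 had 5.17, 5.14 and 5.15 in WT and 5.15, 5.18 and 5.14 in KO on chow, so the 6 chow arrays lay close together. On HFD it had 5.29, 5.80 and 5.70 in WT and 5.12, 5.59 and 5.23 in KO. All WT HFD arrays were above the chow arrays, and KO HFD replicate 2 lay among the WT HFD arrays. It rose with HFD in WT by 0.44 ± 0.14 (1.36-fold, adjusted p = 0.036). That call was lost without any 1 of the 3 WT chow replicates or of WT HFD replicates 2 and 3 (adjusted p of 0.078 to 0.13), and in a fit of the 6 compared arrays alone (0.066). KO minus WT on HFD was -0.28 ± 0.14 (adjusted p = 0.22), and it passed without WT HFD replicate 1 (-0.43, adjusted p = 0.025). On chow it was 0.00 ± 0.14 (adjusted p = 0.999).

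Whether the genotype difference itself depended on diet was asked by the interaction of genotype and diet. Limma called 0 of 8 members, beside 0.00502% of all genes, which is 1 gene, Ppfibp2 (-1.12 ± 0.11, adjusted p = 0.014), named after its value was seen. At an unadjusted p under 0.05 there were 2 of 8 members, Irf8 and Oas1a, and 17.5% of all genes. Irf8 had -1.09 ± 0.30 (-1.75 to -0.43, adjusted p = 0.12) and Oas1a had -0.63 ± 0.25 (-1.19 to -0.07, adjusted p = 0.24). The other 6 lay between -0.29 and 0.34, with adjusted p of 0.40 to 0.97. Without WT HFD replicate 1, the lowest Irf8 array of its group, Irf8 passed (-1.40 ± 0.16, adjusted p = 0.00075).

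The other genes of the pathway were read from lists by role, with 87 of 99 listed genes on a row of their own. Limma called 0 of 87 for KO against WT on chow. At an unadjusted p under 0.05 there were 7, where 5.60% of all genes passed. The median change on chow was -0.06, against 0.01 for all genes, with 61 of 87 changes negative. On HFD 17 were lower in KO, 3 were higher and 67 did not pass, with a median change of -0.10, where 13.5% of all genes were called and 6.85% were lower. With HFD 26 of 87 rose and 1 fell in WT (median 0.15), where 11.8% of all genes rose and 12.3% fell. In KO 5 of 87 rose (median 0.10), where 2.80% of all genes did. Of the 17 lower genes 8 were sensors or adaptors, 3 receptors or kinases, 2 transcription factors, 3 type I interferon induced and 1 interferon gamma induced. The HFD count of 20 was 31 without WT HFD replicate 1, 6 without WT HFD replicate 2 or 3 or KO HFD replicate 1, 13 without KO HFD replicate 2, 9 without KO HFD replicate 3 and 0 in a fit of the 6 compared arrays alone.

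**Figure D3:**
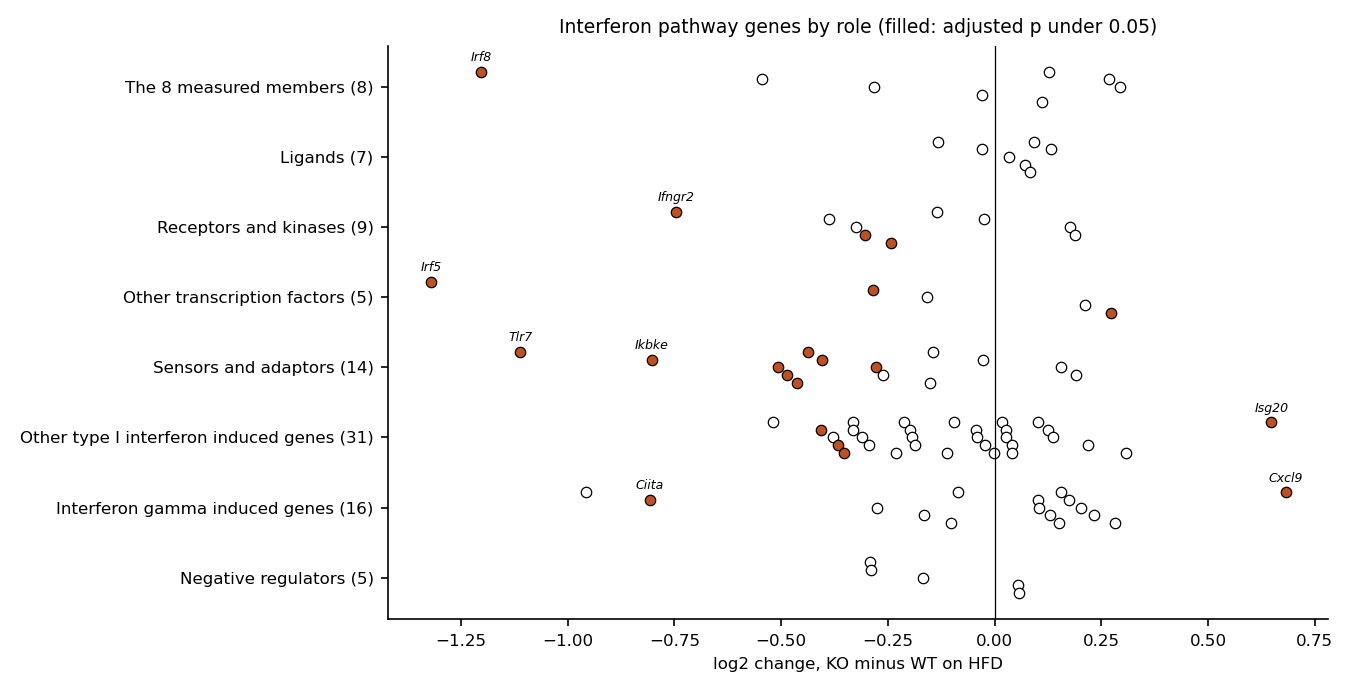
Log2 change of KO minus WT on HFD for the 8 members and the 87 other measured pathway genes, 1 line a role with the number of genes in brackets (n = 3 arrays a group). Filled points passed at an adjusted p under 0.05, and those beyond 0.55 to either side are named. Irf8 (-1.20) and Irf5 (-1.32) lie farthest to the left, and Cxcl9 (0.68) lies farthest to the right.

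Upstream of the members, 0 of 7 measured ligand genes passed on HFD, where 13.5% of all genes did. Ifnb1, which encodes interferon beta, had 0.03 ± 0.10 (adjusted p = 0.88) and Ifng, interferon gamma, had 0.07 ± 0.10 (0.74). Of 9 receptors and kinases 3 fell, where 6.85% of all genes did. Ifngr2, the second chain of the interferon gamma receptor, fell by 0.75 ± 0.12 (adjusted p = 0.0059), Ifnar2 by 0.30 ± 0.08 (0.023) and Jak1 by 0.24 ± 0.06 (0.022). Ifnar1 had -0.32 ± 0.11 (0.076) and Ifngr1, the ligand binding chain, had 0.19 ± 0.14 (0.44).

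Among the other transcription factors Irf5, an activator of macrophage cytokine genes, fell by 1.32 ± 0.21 (adjusted p = 0.0060). Irf9, the DNA binding partner of Stat2, fell by 0.29 ± 0.08 (0.030), and Irf3, the first factor in interferon beta induction, rose by 0.27 ± 0.08 (0.045). On HFD Irf5 had 8.20, 9.33 and 9.001 in WT and 7.44, 7.55 and 7.58 in KO, and Ifngr2 had 10.50, 10.96 and 10.66 in WT and 9.85, 10.01 and 10.03 in KO. For both, as for Irf8, no KO array reached a WT array. Of the pathway genes called, these 2 held without any 1 array, and no other did.

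Sensors and adaptors had 8 of 14 genes lower in KO on HFD, where 6.85% of all genes were lower, and 0 higher. Macrophage markers were lower in the same comparison, 10 of 12 with a median of -1.48, and their part in these counts was not tested. Sting1, the adaptor of cytosolic DNA sensing, fell by 0.46 ± 0.10 (adjusted p = 0.012), and Cgas, the DNA sensor that feeds it, by 0.44 ± 0.09 (0.013). Ikbke, a kinase that phosphorylates interferon regulatory factors, fell by 0.80 ± 0.18 (0.016), and Dhx58, an RNA sensor, by 0.49 ± 0.12 (0.021). Tlr9, an endosomal DNA receptor, fell by 0.40 ± 0.10 (0.024) and Zbp1, a sensor of Z-form nucleic acid, by 0.51 ± 0.13 (0.030). The remaining 2, Myd88 (-0.28 ± 0.08) and Tlr7 (-1.11 ± 0.31), were named after their values were seen. In WT 7 of the 14 rose with HFD, where 11.8% of all genes did, and 0 fell. In KO 1 of the 14 rose with HFD, where 2.80% of all genes did.

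Of 31 other type I interferon induced genes Trim30a (-0.41 ± 0.10), Parp14 (-0.35 ± 0.09) and Epsti1 (-0.37 ± 0.11) fell in KO on HFD, where 6.85% of all genes did, and Isg20, an exonuclease, rose by 0.65 ± 0.16 (adjusted p = 0.024). In WT 10 of the 31 rose with HFD and 1, Isg20, fell, where 11.8% of all genes rose and 12.3% fell. In KO 4 of the 31 rose with HFD and 0 fell, where 2.80% of all genes rose. The median diet change of the 31 was 0.18 in WT and 0.15 in KO, against -0.03 and -0.01 for all genes. Of 16 interferon gamma induced genes 1 was lower and 1 higher in KO on HFD, where 13.5% of all genes were called. Ciita, the activator of MHC class II genes, fell by 0.81 ± 0.17 (adjusted p = 0.013). Cxcl9, a chemokine for T cells, rose by 0.68 ± 0.19 (0.035). None of the 5 negative regulators was called. The medians on HFD were -0.09 for the 31 genes and 0.12 for the 16, against 0.02 for all genes. On chow they were -0.10 and -0.02, against 0.01.

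Irf8 is also a gene of macrophages, and most macrophage markers moved with it. Of 12 markers measured 10 were lower in KO on HFD (median -1.48), where 6.85% of all genes were, and 10 rose with HFD in WT (median 1.496), where 11.8% did. The other 2, Cd14 and Cd163, passed in neither comparison. Cd163 went the other way, with 0.28 for KO minus WT on HFD and -0.49 with HFD in WT. Limma called 0 of the 12 on chow or with HFD in KO, also at an unadjusted p under 0.05. In a fit of the 6 HFD arrays alone it called 0 of the 12 on HFD. On chow 11 of the 12 KO minus WT changes were negative (median -0.25, all genes 0.01). The chow arrays of the genotypes did not overlap for 3 of the 12 and for 11.5% of all genes. With HFD in KO the median was 0.27 (all genes -0.01). The summed linear intensity of the 12 markers was 20827 to 41827 on the WT HFD arrays and 12602 to 13229 on the KO HFD arrays. On chow it was 12047 to 15037 in WT and 10070 to 12535 in KO. Itgax, an integrin of adipose tissue macrophages, had 8.96, 11.31 and 10.61 in WT HFD replicates 1, 2 and 3, and Irf8 was likewise lowest on replicate 1. In bulk tissue, fewer cells of a type and less RNA per cell cannot be told apart. The part of macrophage number in the Irf8 result was not tested.

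**Figure D4:**
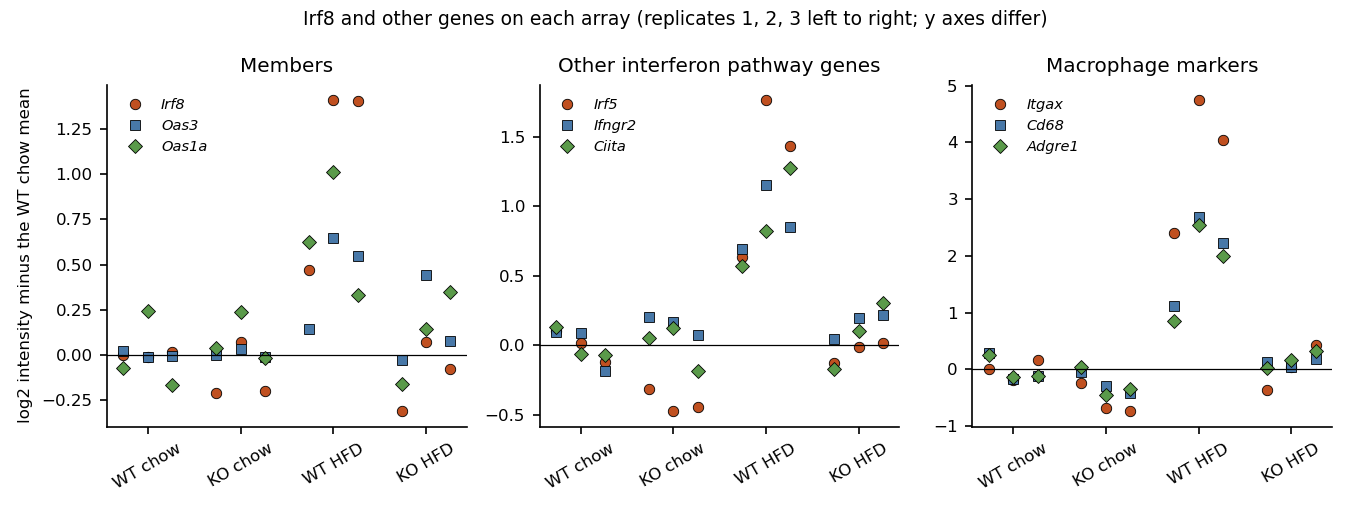
Log2 intensity minus the WT chow mean on each of the 12 arrays, replicates 1, 2 and 3 from left to right, for Irf8, Oas3 and Oas1a, for 3 other pathway genes and for 3 macrophage markers, with separate y axes. WT HFD replicate 1 has the lowest value of its group for Irf8, Oas3, Irf5, Ifngr2, Ciita, Itgax, Cd68 and Adgre1, but not for Oas1a.

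Dendritic cells and B cells also use Irf8, and the part of their numbers in the Irf8 result was not tested. The median changes on HFD were -0.03 for plasmacytoid dendritic cell, -0.29 for conventional dendritic cell and -0.15 for B cell markers. That of the macrophage markers was -1.48. The lists differ in length and in signal. Of 5 measured plasmacytoid dendritic cell markers 0 passed, with sums of 790 to 802 in WT and 763 to 784 in KO. Of 6 conventional dendritic cell markers Flt3 was lower, with -0.83 (sums of 614 to 955 and 697 to 852). Of 4 B cell markers Cd79b was lower, with -0.43 (164 to 220 and 148 to 166). Csf3r and S100a8 of 4 neutrophil markers were lower (148 to 174 and 100 to 114). The lowest change in the neutrophil list was -1.18, near the -1.20 of Irf8. Adipocyte markers had sums of 31352 to 41413 in WT and 44650 to 46683 in KO, and Plin1 and Lipe were higher in KO. Tek, of 4 endothelial markers, was higher, and 0 of 6 T cell, 0 of 4 NK cell and 0 of 4 stromal progenitor markers passed. Over all genes 13.5% were called on HFD and 6.85% were lower. The deposited values have no true zero and no detection calls, so no marker can be called absent.

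Across the 12 arrays Irf8 had Pearson's r of 0.963 with Itgax, 0.952 with Cd68 and 0.942 with Adgre1, but -0.558 with Cd163, also a listed macrophage marker. Around the group means the same r were 0.840, 0.778, 0.773 and -0.643. Oas3 had r = 0.874 with Irf8, and 0.869 around the group means. Ifit3 ran the other way, with r = -0.846 with Adgre1 and -0.732 around the group means. Among the Ifit genes r was 0.206 for Ifit1 with Ifit3, -0.226 for Ifit2 with Ifit3 and 0.159 for Ifit1 with Ifit2. Around the group means these were 0.572, 0.398 and -0.284, so for the last 2 pairs the sign turned. These correlations describe 12 arrays that share their groups and hybridisations.

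The genes most like each member over the 12 arrays differed from member to member. For Irf8 they were Pclaf, a factor of DNA replication, the calgranulin S100a8 and the proton channel Otop1 (r = 0.985 to 0.987). Oas3 was most like Arhgef2, Daglb and Grb2 (0.942 to 0.955), and Irf7 most like Rere, Ift52 and Mpg (0.926 to 0.955). For Stat2 the genes were Ikbip, Nbr1 and Zfp935 (0.922 to 0.942), and for Oas1a they were H3c4, Oaf and Mex3c (0.922 to 0.928). Ifit2 was most like AA467197, Lgr4 and Tmem160 (0.906 to 0.924), Ifit3 most like Caskin2, Lgals2 and F11r (0.897 to 0.927), and Ifit1 most like Ammecr1l, Cyp3a44 and Rara (0.816 to 0.834). The members were passed over in this ranking, so none could be named as like another.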

How the data were processed

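White adipose tissue RNA was measured on 12 arrays of 1 colour, and each array was placed in its group by its own labels. The authors deposited 1 table of 34760 rows with log2 values from 2.09 to 14.2; the base was inferred from their range. Per the labels' protocols, RNA was amplified and labelled for whole-transcript arrays, and the submitters' processing notes name affy without a version. The sources used here name no background correction or normalization; array medians were 5.78 to 5.92. The table has no detection calls or depth, and 3 arrays a group limit the precision.

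Rows were named through the platform annotation: 21640 rows had 1 symbol, 1321 had several and 11799 had none listed. The highest-mean row stood for the 954 genes with several rows, which left 19937 genes; of the rows with 1 symbol, 21553 matched RefSeq (GRCm38.p6) by Entrez identifier and 0 needed a new symbol. A mean for each of 4 groups was fitted to the deposited values of all 12 arrays in limma 3.58.1 (R 4.3.3, 8 residual degrees of freedom, eBayes, two-sided, Benjamini-Hochberg over all genes). The fit was tested on simulated data with normal noise and, for each gene, 1 spread in all 4 groups. For KO minus WT on HFD it recovered 94% of log2 changes of 1 and 100% of changes of 2, with 7 false calls. As the spread was equal by design, this test cannot show how unequal spread between groups affects the calls.

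The members, pathway lists and marker lists were chosen with earlier results of these data known. Ahnak, the members, the genes of each role called on HFD (at most 6 with the smallest p) and core genes of the pathway were named by rule. So were the 3 genes most alike to each member, with the members, predicted genes, receptors of smell and small RNAs passed over. Alternatives were a replicate block, only the compared groups, a trended and robust prior, quantile normalization, a filter on dim genes, the mean of a gene's rows, array weights, and each replicate left out.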

Additional observations from a re-analysis of the deposited data

How the results depend on the processing

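Chow calls stayed at 0 in all settings, for genes, members, pathway genes and macrophage markers. With the replicate block, 2 members were called for KO against WT on HFD, with Oas1a passing (-0.54, adjusted p = 0.047). For HFD against chow in KO the counts were 740 genes, 0 members and 2 pathway genes, and for the interaction 0 genes. Same-numbered arrays of different groups deviated together at r = -0.408 to 0.379, with 4 of 18 pairs over 0.1. Each deviation was taken from the mean of few arrays, so these values cannot show whether the numbers pair the samples.

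A fit of only the compared groups gave, on HFD, 4 genes, 0 members, 0 pathway genes and 0 macrophage markers, and Irf8 at an adjusted p of 0.066. It gave 2 members for the WT diet comparison, and 585 genes, 0 members and 2 pathway genes for the KO diet comparison. The interaction uses all groups and had no such fit. Array weights gave 7648 genes, 3 members and 46 pathway genes on HFD, 9985 genes and 49 pathway genes for the WT diet, 2137 genes, 2 members and 9 pathway genes for the KO diet, and 2819 genes and 1 member for the interaction. With dim genes left out, 2 members passed for the KO diet. Signs turned with array weights for Ifit3 (0.014) and Oas3 (-0.0015) on chow and for Ifit1 (0.037) and Ifng (-0.0076) on HFD, and with quantile normalization for Irf8 in the KO diet comparison (-0.011).

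Each array of the compared groups was left out in turn. The HFD counts then ran from 904 to 3930 genes, 1 to 2 members and 6 to 31 pathway genes. For the WT diet they ran from 3072 to 5285 genes and 2 to 6 members, for the KO diet from 62 to 1509 genes, 0 to 1 members and 0 to 5 pathway genes, and for the interaction from 0 to 2060 genes and 0 to 1 members. Values whose sign turned ranged, on chow, from -0.20 to 0.42 for Ifit1, -0.13 to 0.058 for Ifit3, -0.0083 to 0.015 for Oas3 and -0.066 to 0.19 for Irf7. On HFD they ranged from -0.13 to 0.088 for Ifit1 and -0.047 to 0.078 for Ifnb1. In the KO diet comparison the ranges were -0.11 to 0.061 for Ifit3, -0.095 to 0.16 for Oas1a and -0.081 to 0.11 for Irf8, and in the interaction -0.45 to 0.17 for Ifit1 and -0.24 to 0.014 for Ifit2. The causes were not tested.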
